A study of Mus musculus with 2 samples.

Results

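The Acan locus was described here by the Sox6 and Sox9 peaks called in it in mouse rib chondrocytes. The members are all peaks of either deposited list whose centre lies on chromosome 7 between 86.11 and 86.262 Mb (mm9), which gave 72 of 79107 Sox6 peaks and 20 of 23865 Sox9 peaks. Acan is on the plus strand, and its start was taken as about 86.198 Mb and its end as about 86.26 Mb. The 88 kb before that start are called the upstream part, and the 64 kb from it to the end of the window the gene body, although 2 Sox6 peaks of that part lie past the approximate end of the gene. No mm9 annotation was used here, so exons, introns and UTRs are not assigned and the start is approximate.

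The Sox6 peaks come from 1 chromatin immunoprecipitation (ChIP-seq) of primary rib chondrocytes from untreated wild-type ICR mice at postnatal day 1, and 1 input DNA sample of the same kind of cells, without antibody, belongs to it. The dissection kept proliferating and prehypertrophic cartilage and left out mature hypertrophic regions. The Sox9 peaks were called by the authors in the same manner from older Sox9 ChIP-seq data on rib chondrocytes of mice, whose strain and age are not stated in the sources used here. There is 1 list for each factor, without replicates, scores or read counts, so sequencing depth is unknown, no difference below was tested, and intervals cover counting error only. Differences between the factors cannot be told apart from differences between the antibodies, animals, libraries or list lengths. The lists hold no expression values, so whether these cells expressed Acan or other cartilage markers was not measured.

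Acan encodes aggrecan, the large chondroitin sulphate proteoglycan that binds hyaluronan and holds water in the cartilage matrix. SOX9, the HMG-box factor needed for cartilage formation, activates Acan, and SOX5 and SOX6, which have no transactivation domain of their own, bind DNA beside it and strengthen its action. In mice, Acan is controlled by enhancers that lie well upstream of the gene, among them one on which Sox9 acts together with Sox5 and Sox6. In the RefSeq gene table (GRCm38.p6), the lncRNA gene Gm26633 overlaps the start of Acan on the opposite strand, and the next gene downstream is Hapln3, which encodes a hyaluronan and proteoglycan link protein.

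The promoter is shown because no mm9 genome was used, so that motifs could not be searched in the peaks themselves. The sequence is from RefSeq (GRCm38.p6, chr7:79052976-79053275, plus strand). It is not on the build of the peaks and was not aligned to them. Lower case marks the 250 bases before the start and capitals the 50 bases from the start on.
Acan promoter: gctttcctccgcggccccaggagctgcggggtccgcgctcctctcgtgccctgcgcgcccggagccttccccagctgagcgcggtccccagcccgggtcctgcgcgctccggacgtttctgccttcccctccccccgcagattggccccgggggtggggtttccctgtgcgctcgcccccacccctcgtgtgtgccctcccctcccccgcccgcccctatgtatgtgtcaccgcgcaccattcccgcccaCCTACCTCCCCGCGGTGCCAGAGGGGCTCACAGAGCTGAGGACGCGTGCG
These 300 bases are 74.0% G or C, against a median of 52.7% over all 32851 promoters of the table, and 4.77% of promoters are at least as rich. The SOX motif AACAAT, searched on both strands, had no match in it, and 10.7% of all promoters hold a match. AACAAAG had none either (5.85% of promoters), nor had the inverted pair of ACAAT followed by ATTGT with 3, 4 or 5 bases between, which overlaps AACAAT where an A precedes it (0.0974% of promoters). Sox6 peaks near the start stood at 86197144 to 86197367, 0.745 kb before it, and at 86197871 to 86198130, centred on the approximate start itself. They were at places 58933 and 21349 of the Sox6 list. No Sox9 peak was called over the 12.55 kb from 86189028 to 86201577, which include the start.

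Sox9 peaks lay mostly upstream of Acan and Sox6 peaks mostly in its gene body. Sox9 had 16 peaks in the upstream part and 4 in the gene body, or 1.82 and 0.625 per 10 kb. Sox6 had 23 peaks upstream and 49 in the gene body, or 2.61 and 7.66 per 10 kb. Over the whole lists the densities were 0.309 Sox6 and 0.0933 Sox9 peaks per 10 kb of the range that peaks cover. The number of Sox6 peaks for each Sox9 peak was thus 1.44 upstream and 12.2 in the gene body, against 3.31 in the whole lists. For Sox9 the 95% exact Poisson intervals of the density at Acan were 1.04 to 2.95 upstream and 0.170 to 1.60 in the gene body, which overlap. For Sox6 the intervals were 1.66 to 3.92 upstream and 5.66 to 10.1 in the gene body, which do not overlap. The Sox6 direction depended on the late part of its list: among the first 23865 Sox6 peaks, as many as the Sox9 list holds, 11 lay upstream and 4 in the gene body. The interval of that difference in density, -0.534 to 1.71 per 10 kb, spans both signs.

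**Figure D1:**
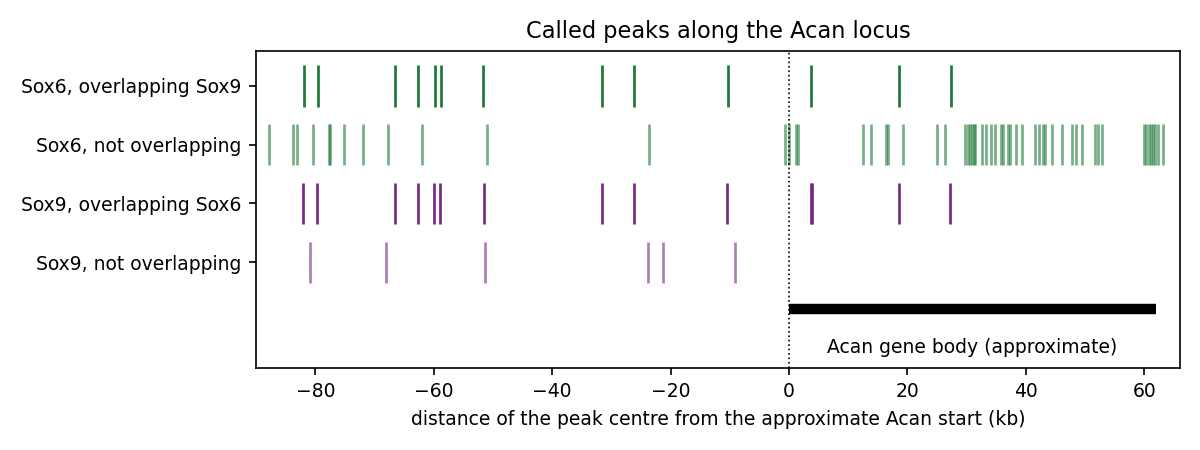
Each vertical mark is the centre of a called peak, placed by its distance in kb from the approximate start of Acan, in separate rows for Sox6 (green) and Sox9 (purple) peaks that do or do not overlap the other factor by at least 1 bp. The 13 overlapping Sox6 peaks are spread over the upstream part and the first part of the gene body. Sox6 peaks without Sox9 are more numerous in both parts, 13 upstream and 46 in the gene body. Only they lie beyond the end of the last Sox9 peak.

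Both lists were dense at Acan compared with most of the genome. When each chromosome was cut into windows of 152 kb, 5 of 16868 windows (0.0296%) held at least 72 Sox6 peaks, and 10 (0.0593%) held at least 20 Sox9 peaks. The median window held 2 Sox6 peaks and no Sox9 peak. Of windows as long as the gene body, 3 of 40080 (0.00749%) had 49 or more Sox6 peaks, but 3.75% had 4 or more Sox9 peaks. Of windows as long as the upstream part, 0.333% had 23 or more Sox6 peaks and 0.0240% had 16 or more Sox9 peaks. These windows can include parts of the locus itself, they were compared after its counts were known, and they describe its rank without testing it. Flanks of the same 152 kb width were sparser. The left one held 19 Sox6 and 9 Sox9 peaks, and the right one 17 Sox6 and 5 Sox9 peaks. At the left border the nearest peaks outside were 0.377 kb (Sox6) and 0.370 kb (Sox9) away. At the right border the nearest were 0.026 kb (Sox6) and 54.0 kb (Sox9) away.

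**Figure D2:**
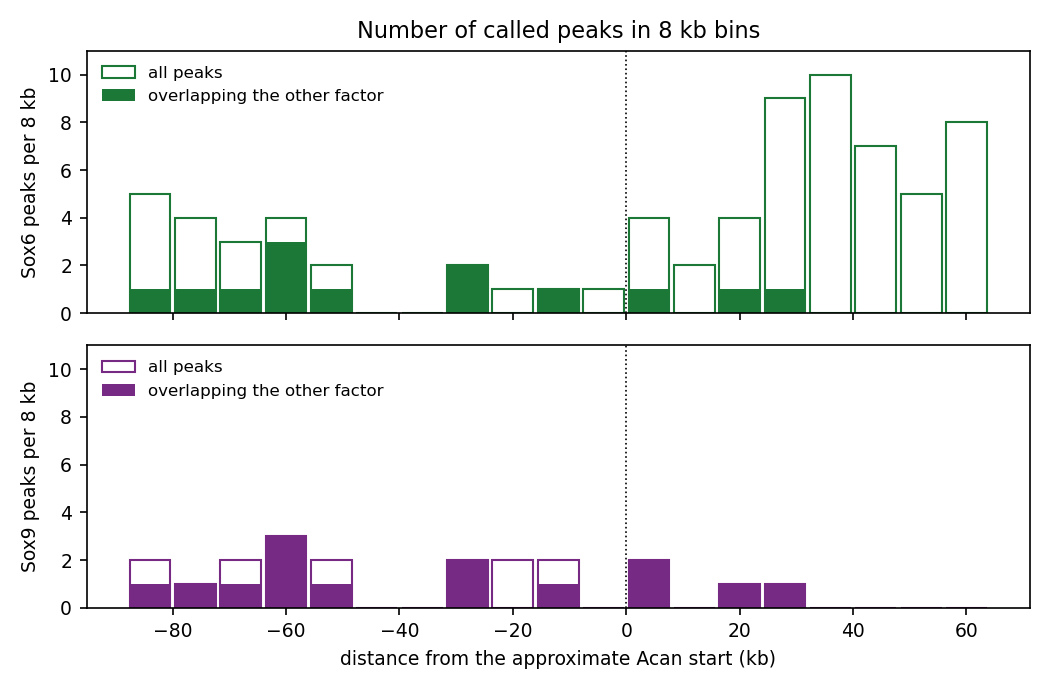
Bars give the number of called Sox6 (top) and Sox9 (bottom) peaks in bins of 8 kb, by distance from the approximate start of Acan, with filled bars for the peaks that overlap the other factor. Sox6 reaches 10 peaks in the bin from 32 to 40 kb after the start, where Sox9 has none, and Sox9 reaches 3 peaks in the bin from 64 to 56 kb before it.

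Of the Sox6 peaks in the locus 13 overlapped a Sox9 peak by at least 1 bp, which is 18.1% (95% exact binomial interval 9.98 to 28.9), against 23.1% of all Sox6 peaks. Of the Sox9 peaks 14 overlapped a Sox6 peak, or 70.0% (45.7 to 88.1), against 76.7% of all Sox9 peaks. Taken as a whole the locus was therefore near the background in both lists. Its parts differed for Sox6: 10 of 23 upstream peaks, or 43.5% (23.2 to 65.5), and 3 of 49 gene body peaks, or 6.12% (1.28 to 16.9), overlapped Sox9. Neighbouring peaks share their library and locus and are not replicates, so these intervals do not amount to a test. The upstream share was close to that of the left flank, where 8 of 19 Sox6 peaks (42.1%) overlapped Sox9. In the right flank 4 of 17 (23.5%) did. At equal list lengths 7 of 11 upstream Sox6 peaks and 2 of 4 in the gene body were shared, and the share over all peaks at that length is not given here. For Sox9 the shares were 62.5% upstream, 10 of 16, and 4 of 4 in the gene body, against 8 of 9 in the left flank and 4 of 5 in the right. Merging peaks of either list that overlap gave 13 sites with both factors, 10 upstream and 3 in the gene body, beside 55 with Sox6 alone and 6 with Sox9 alone, all 6 of which lay upstream. The same counts of merged sites are not given for the whole lists, so they have no background beside them.

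The upstream sites with both factors included the earliest peaks of the locus in both lists. The lists carry no scores and their order is not documented, so a place is reported as a position only. The Sox9 peak at 86115926 to 86116078, centred 82.0 kb before the start, was at place 7 of the Sox9 list. The Sox6 peak on it, at 86115964 to 86116089, was at place 446 of the Sox6 list, the earliest Sox6 peak of the locus, and the centres were 24.5 bp apart. This was the earliest site of the locus for either factor, and it was the upstream site farthest from the gene at which both were called.

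A further site with both factors lay 62.6 kb before the start. Its Sox9 peak at 86135314 to 86135451 was at place 454 and lay wholly within the Sox6 peak at 86135259 to 86135469, at place 4624. Their centres were 18.5 bp apart, the closest of the 14 overlapping pairs. Between these sites, at 66.5 kb, the Sox9 peak at 86131349 to 86131560 was at place 2740 and lay within a Sox6 peak of 317 bp at 86131274 to 86131590, whose place, 33864, was late by comparison. At 51.6 kb a Sox9 peak of 35 bp at 86146419 to 86146453 was at place 1806 and shared 24 bp with the edge of the Sox6 peak at 86146220 to 86146442, at place 13878.

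Nearer to the gene, sites with both factors lay 31.5, 26.2 and 10.4 kb before the start by their Sox9 centres. At 31.5 kb, the Sox9 peak at 86166393 to 86166561 (place 826) contained the whole Sox6 peak at 86166469 to 86166543 (place 6197). At 26.2 kb, the Sox9 peak at 86171675 to 86171864 was at place 873 and the Sox6 peak at 86171751 to 86171899 at place 1482. At 10.4 kb, the Sox9 peak at 86187480 to 86187635 was at place 521, and the Sox6 peak at 86187611 to 86187851 was at place 3203. Here the peaks shared 25 bp and their centres were 173.5 bp apart, the widest of the pairs. A Sox9-driven enhancer at about this distance before Acan is known from transgenic mice, but these peaks were not matched to its sequence. The longest stretch without any peak in the locus, 19.3 kb from 86147047 to 86166392, lay between the far and the near upstream sites.

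The remaining upstream sites with both factors came late in at least 1 list. They were at 79.7 kb, with Sox9 86118166 to 86118420 (place 18493) and Sox6 86118329 to 86118521 (place 57710), and at 59.9 kb, with Sox9 86137957 to 86138233 (place 18534) and Sox6 86138041 to 86138230 (place 57683). At 58.9 kb the Sox9 peak at 86139105 to 86139172 was at place 17851, while the Sox6 peak at 86139135 to 86139276 was at place 8832. The early and the late sites were thus interspersed within the same stretch of upstream sequence.

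Of the 20 Sox9 peaks of the locus 6 were without Sox6, against 5563 of all 23865 Sox9 peaks. These 6 were all upstream, as were 16 of the 20. With only 4 Sox9 peaks in the gene body, their absence there carries little information. Centred 80.9, 68.1, 51.3, 23.8, 21.3 and 9.05 kb before the start, the 6 peaks lay 529.5, 432.5, 333, 205, 2226.5 and 1222 bp from the nearest Sox6 centre. Of them, 2 were in the first 10% of the Sox9 list, at places 1762 (86116977 to 86117128) and 1989 (86188879 to 86189027), and 5 were in its first 50%. The widest Sox9 peak of the locus, 285 bp at 86176511 to 86176795, was the one farthest from Sox6, and it was at place 20759. With a distance of up to 1000 bp between centres allowed, 14 of 16 upstream Sox9 peaks had a Sox6 peak, and 90.4% of all Sox9 peaks did. Both values include Sox9 peaks that overlap Sox6. The share among Sox9 peaks without overlap is not given for the whole list, so their distances here have no background beside them. By the same measure 16 of 23 upstream Sox6 peaks and 5 of 49 in the gene body had a Sox9 peak, against 31.0% of all Sox6 peaks.

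In the gene body Sox9 was called at 3 places in its first part, each time on a Sox6 peak. The first lay 3.66 and 3.89 kb after the start, where Sox9 peaks at 86201578 to 86201740 (place 11155) and 86201789 to 86201996 (place 22336) both touched a Sox6 peak of 116 bp at 86201678 to 86201793. The overlaps were 63 and 5 bp. That Sox6 peak was at place 1842, the third earliest of the locus. At 18.6 kb the Sox9 peak at 86216613 to 86216678 (place 11992) met a Sox6 peak at 86216553 to 86216655 (place 31764). At 27.2 kb the Sox9 peak at 86225124 to 86225370 (place 13050) ended at the same base as the Sox6 peak at 86225254 to 86225370 (place 21735). The longest stretch of the gene body without a peak of either factor ran for 8.34 kb, from 86201997 to 86210335, directly after the first of these places.

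Beyond its last Sox9 peak the gene body held Sox6 peaks alone. In the 36.6 kb from the end of that peak to the end of the window there were 36 Sox6 peaks without Sox9, or 9.83 per 10 kb, from 86227681 to 86261252. Their median place was at 78.3% of the Sox6 list, 33 of them were past its first 50%, and none was in its first 10%. The next Sox9 peak was 90.8 kb away, and that interval held 41 Sox6 peaks, the peak shared with Sox9 included. Of all 23844 intervals between neighbouring Sox9 peaks, 4 (0.0168%, this one included) held at least as many Sox6 peaks, where the median was 2 and the largest number 54. This interval was picked out after its values were seen. Neighbouring Sox6 peaks overlapped each other in 2 places there: 4 peaks formed a run of 1296 bp from 86228400 to 86229695, and 2 a run of 793 bp from 86240721 to 86241513. The run of 2 held the widest Sox6 peak of the locus, of 495 bp. Median widths were 157 bp for upstream Sox6 peaks and 184 bp for those of the gene body, against 151 bp in the whole list.

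**Figure D3:**
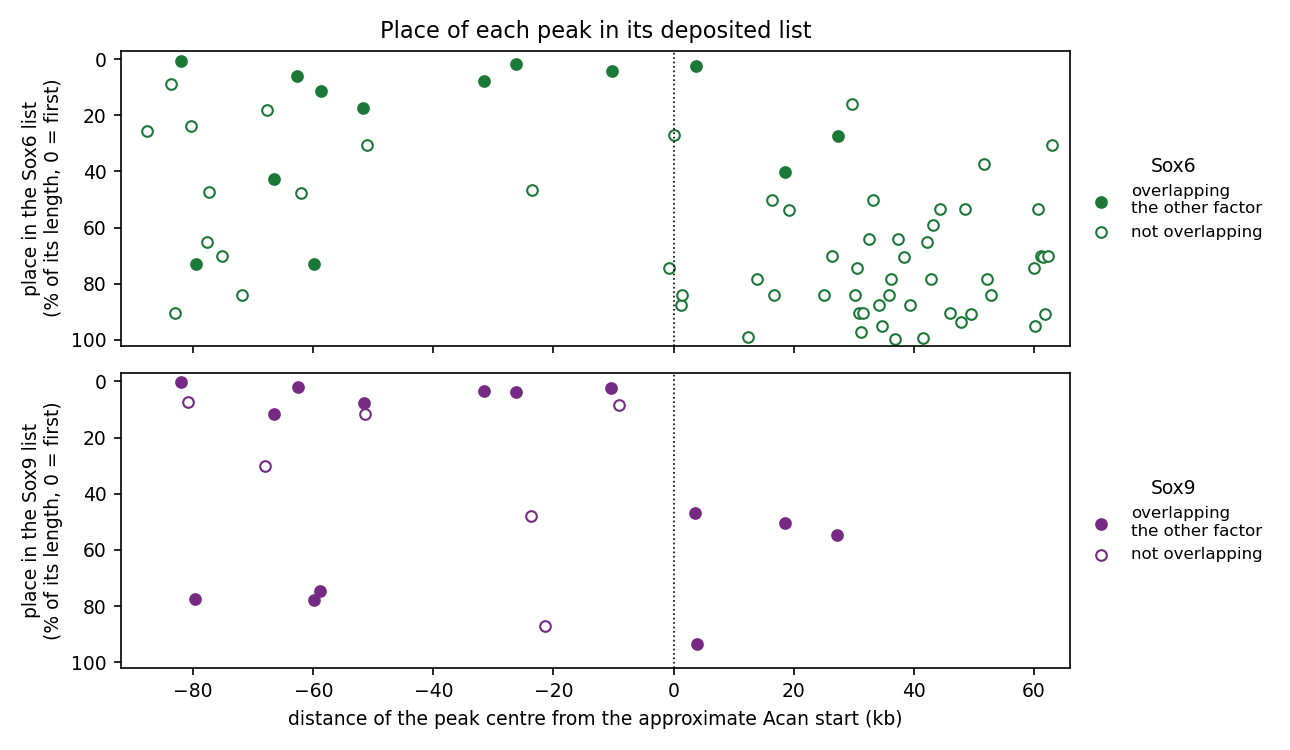
Each point is a peak, by its distance from the approximate start of Acan and its place in the Sox6 (top) or Sox9 (bottom) list as a percentage of the list's length, with the first peaks at the top and filled points for overlap with the other factor. Upstream peaks reach the top of both panels, and after the start most Sox6 points lie in the lower part of the panel and all 4 Sox9 points at 46.7% or later.

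By place in the list, upstream peaks of both factors came earlier than those of the gene body. The median place was at 30.5% of the Sox6 list for the 23 upstream peaks and at 78.3% for the 49 gene body peaks. In the Sox9 list it was at 9.91% for the 16 upstream peaks and at 52.5% for the 4 gene body peaks. In the left and right flanks the medians were at 38.4% and 46.6% for Sox6, and at 56.9% and 27.9% for Sox9. The first 10% of the Sox9 list held 8 of the 16 upstream peaks and none of the 4 gene body peaks, against 10.0% of all peaks. The first 10% of the Sox6 list held 6 of the 23 upstream peaks and 1 of the 49 gene body peaks, against 10.0% of all peaks. All of the 5 earliest Sox9 peaks of the locus were upstream and on a Sox6 peak, and of the 5 earliest Sox6 peaks 4 were upstream and all 5 were on a Sox9 peak. Among Sox6 peaks of the locus, those on a Sox9 peak had a median place at 11.2% and the others at 74.5%. Within the upstream part these medians were 9.50% and 47.5%. The same medians over the whole Sox6 list are not given here, so a difference particular to Acan cannot be told from one of the whole list. Each Sox9 peak was also paired with the Sox6 peak of nearest centre and kept where that peak overlapped it, which leaves out Sox9 peaks that overlap only a Sox6 peak farther away by centre. The median distance between centres over the 14 such pairs of the locus was 60.25 bp, with 6 pairs (42.9%) within 50 bp. Over the 18297 such pairs of the whole lists it was 40.5 bp, with 58.5% within 50 bp.

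**Figure D4:**
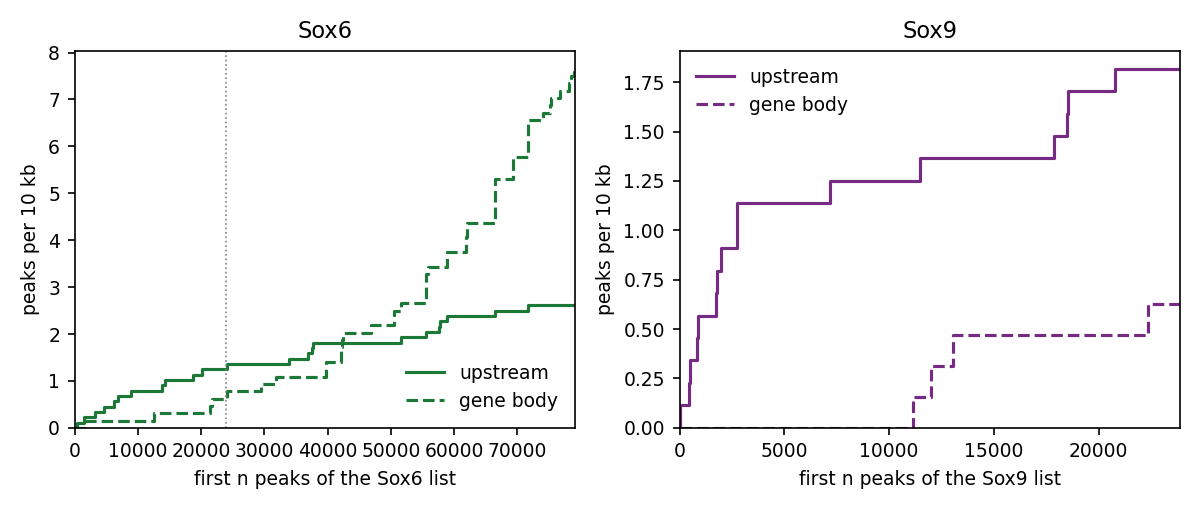
Lines give the density of peaks, per 10 kb, in the upstream part (solid) and the gene body (dashed) of Acan among the first n peaks of the Sox6 (left) and Sox9 (right) list, on separate vertical scales, and the dotted line marks the length of the Sox9 list. For Sox6 the gene body passes the upstream part between 40000 and 60000 peaks, and for Sox9 the upstream part is higher from the first peak of the locus on.

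Which part of the locus had more Sox6 peaks per 10 kb changed with how far down the list peaks were counted. Among the first 10000 Sox6 peaks there were 7 upstream and 1 in the gene body, and among the first 40000 there were 16 and 9, or 1.82 and 1.41 per 10 kb. Among the first 60000 there were 21 and 24, or 2.39 and 3.75 per 10 kb. At 23865 peaks, the length of the Sox9 list, Sox6 had 1.25 peaks per 10 kb upstream and 0.625 in the gene body, and Sox9 had 1.82 and 0.625. The interval of the Sox6 difference, upstream minus gene body, was -0.534 to 1.71 at that length. For the first 50% of the list it was -0.673 to 2.03. Both intervals span both signs, so the early part of the Sox6 list showed no clear excess on either side. Past the first 50% of the Sox6 list were 7 of the 23 upstream peaks and 42 of the 49 gene body peaks, against 50.0% of all Sox6 peaks, in a list 3.31 times as long as that of Sox9. Whether a Sox9 list of that length would hold such peaks was not tested.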

How the data were processed

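Each list as deposited by the authors holds the chromosome, start and end of every called peak, with no header and no value per peak. For the Sox6 and input samples, the submitters' processing notes name Bowtie, with no version, and mm9. The name of the Sox9 list carries a false discovery rate (FDR) tag, which the sources used here do not explain. Beyond that tag they state no peak caller or threshold. For the Sox9 list they state no build, so that it was read as mm9 too. Starts were read as counted from 0 and are printed counted from 1. The input sample was not analysed here.

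Members were assigned by peak centre, and overlap needed at least 1 bp. Percentages of peaks carry exact Clopper-Pearson intervals, densities exact Poisson intervals, and both treat peaks as independent, which neighbours are not. Python 3.11.15 and scipy 1.17.1 were used, and the overlap code was tested on simulated peaks. Named were all sites with both factors, the 5 earliest members of each list, the widest, those nearest the start and the longest stretches without peaks. Motifs planned for peak sequences were searched in the RefSeq promoters only, since no mm9 genome was used. The locus, its parts and these rules were chosen with earlier results of these data known. Alternatives changed the overlap, the list length, the window, the boundary and the merging of peaks.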

Additional observations from a re-analysis of the deposited data

How the results depend on the processing

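Of 47 recomputed values, 34 stayed within the interval of the reported value, or within 1.5 times for a count. The density of Sox6 peaks upstream minus gene body, -5.04 per 10 kb, reversed in sign at 2 settings, since these keep fewer late peaks. It was 0.724 (interval -0.673 to 2.03) with the first 50% of each list and 0.625 (-0.534 to 1.71) at equal list lengths. Both of these intervals span both signs. When overlap had to cover 50% of each peak, 6.94% of Sox6 and 25.0% of Sox9 peaks were shared, the number of sites with both factors was 5, and the difference in Sox9 sharing, upstream minus gene body, was 31.25 percentage points in place of -37.5. When edges up to 1000 bp apart counted as shared, the shares were 30.6% for Sox6 and 90.0% for Sox9, and the upstream minus gene body difference for Sox6 was 63.7 points in place of 37.4. That difference was 13.6 points at equal list lengths, where 60.0% of Sox6 peaks were shared. The first 50% of each list gave 34.8% and 8 sites. Shares over all peaks are not given at these settings, so the shares of the locus under them cannot be set against the background. Moving the tiled windows by 0.5 of their length, chosen after seeing the data, left 4, 8 and 2 windows in place of 5, 10 and 3. No paired analysis was possible because each factor has 1 list. The 4 Sox9 peaks in the gene body limit every comparison of Sox9 between the parts.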

Other observations

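Some peaks of the locus stood near each other in the order of the lists, which is not sorted by position. Joining members no more than 50 places apart put 39 of the 72 Sox6 peaks into 11 runs. The same measure is not given for all peaks or for other dense loci. The run with the most members held 7 Sox6 peaks between places 66440 and 66515, of which 6 were in the gene body, and another held 6 between places 71640 and 71681, of which 5 were. In the gene body 20 of 49 Sox6 peaks (40.8%) had a peak from within 152 kb no more than 10 places away in the list, and upstream 5 of 23 (21.7%) did, against 14.1% of all Sox6 peaks. In the Sox9 list 3 of 16 upstream peaks did and none of the 4 in the gene body, against 8.34% of all Sox9 peaks. These shares are not like for like with those of all peaks. A peak with more peaks within 152 kb can have more such neighbours, and the median window of that length held 2 Sox6 peaks. These runs were noticed after the places had been seen, and their source was not tested. Places of neighbouring peaks should therefore not be read as independent of each other, but whether they depend on each other was not tested.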
